A study of Mus musculus with 26 samples.

Results

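Proteins that shorten the life of cytokine messenger RNAs are described here by the levels of their own transcripts in macrophages of the inflamed mouse lung. They come from 5 genes of the 55487 in the deposited table, taken by symbol: Zfp36, Zfp36l1, Zfp36l2, Zc3h12a and Zc3h12c. All 5 were among the 17143 genes that passed the filter on low counts. They had been picked with their levels in these 26 libraries already known, so their levels and differences are given as a description, with the standard error of the fit and no test. RNA came from bone marrow-derived macrophages (BM), which enter the lung during inflammation, and from resident alveolar macrophages (AM), which live in the air spaces. Lipopolysaccharide (LPS), a bacterial wall product that macrophages sense through Toll-like receptor signalling, had been put into the trachea. The groups were BM at day 1 (n = 5), day 3 (n = 4) and day 7 (n = 3) after LPS, AM at day 1 (n = 4), day 3 (n = 3) and day 7 (n = 4) after LPS, and AM of mice without treatment, called day 0 (n = 3). The labels give neither strain, age in numbers, sex nor sorting gates. The descriptions of the day 0 libraries alone carry the word Young. Nothing says that replicates are separate animals, so every spread and p-value here is that between these libraries, which may be technical in part. Libraries are named by group and replicate, as in BM_day3.1.

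Zfp36 encodes tristetraprolin (TTP), and Zfp36l1 and Zfp36l2 encode its relatives. Through paired zinc fingers these proteins bind AU-rich elements in the 3′ untranslated region (UTR) of messenger RNAs such as that of tumour necrosis factor, and they recruit the CCR4-NOT complex, which removes the poly(A) tail. Zc3h12a encodes Regnase-1, an endoribonuclease that cuts stem-loops in the 3′ UTRs of Il6 and other cytokine transcripts, and Zc3h12c encodes Regnase-3, a relative. TTP can be held inactive by phosphorylation through p38 and MK2, and Regnase-1 can be removed through the IKK kinases or by the protease MALT1. The RNA level of these genes therefore does not give the activity of the proteins.

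The element that TTP recognises can be shown in the transcripts of its own family and of its known targets. The searched motif was TATTTAT in the DNA letters of the transcript strand, with overlapping matches counted, in the 3′ UTR of the GENCODE M21 transcript with the longest coding sequence (genome build GRCm38). Each line gives 30 bases with the motif in capitals, chosen to show the motif in the family and in 3 target transcripts described further on. The stretch shown is the one with the most matches in each 3′ UTR, so it does not give the density of the whole.
Zfp36 (chr7:28376959-28376988, minus strand): cccttTATTTATgacgacttTATTTATtgt
Zfp36l1 (chr12:80108415-80108444, minus strand): aaacgTATTTATtgccaaactatgcttttt
Zfp36l2 (chr17:84184907-84184936, minus strand): taactTATTTATtatcttgtgaaaagtata
Zc3h12c (chr9:52114855-52114884, minus strand): atcatTATTTATaggaacaaagatatacta
Tnf (chr17:35199678-35199707, minus strand): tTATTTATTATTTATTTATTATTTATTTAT
Ptgs2 (chr1:150105792-150105821, plus strand): gaccaTATTTATTTATTTATgtgaagaatt
Ier3 (chr17:35822487-35822516, plus strand): attaaTATTTATgTATTTATgtatatcctc

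The motif was in the 3′ UTR of 4 of the 5 genes. Zfp36 had 3 matches in 774 bases (3.88 per kb), Zfp36l1 had 3 in 1835 bases (1.63 per kb) and Zfp36l2 had 3 in 1822 bases (1.65 per kb). Zc3h12c had 2 in 3421 bases (0.585 per kb), and Zc3h12a had 0 in 856 bases. Over all genes with a 3′ UTR, 5364 of 21037 (25.5%) held the motif, at 0.314 per kb. Among 24 transcripts listed as known targets of the decay proteins, 19 (79.2%) held it, with 8 matches in Tnf (10.5 per kb), 4 in Ier3 (6.53 per kb) and 6 in Ptgs2 (2.45 per kb, below Zfp36). The list was drawn from known targets, and the TTP family binds such elements, so nothing is read from the higher share. Vegfa and Nfkbiz, also described further on, had 0 in the 315 and 1355 bases of the transcripts searched. Their other transcripts, whose 3′ UTRs may be longer, were not searched, so the motif is not shown to be absent from these genes. A match is a run of letters and does not show binding.

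Values are CPM, read counts scaled to the same library size with TMM factors. Libraries held 9176202 to 80816742 counts. BM_day3.1 and BM_day1.3 stood apart, with 9126 and 9684 genes detected and median correlations with their groups of 0.734 and 0.830. The 7 markers of fibroblasts and endothelium summed to 27504 CPM in BM_day3.1, its own group having a median of 267 CPM, and neutrophil markers to 3349 CPM, with a median of 549 CPM. Nearly all of the first sum came from the collagen genes Col1a1 (14976 CPM) and Col1a2 (12125 CPM). Col3a1 had 333 CPM there, Pecam1 38.0 and Cdh5 31.6, and Dcn and Cldn5 had 0 CPM. All 9 resident alveolar macrophage markers had counts in every group, none at 0, and their sum was 975 to 14790 CPM in BM and 16039 to 30984 CPM in AM. BM_day7.1 and BM_day7.2, at 14008 and 14790 CPM, came near the AM range, whereas BM_day7.3 had 2459 CPM. The summed level of Y-linked transcripts was at most 4.09 CPM in BM day 7 and AM day 7, and at least 146 CPM in AM day 0, 1 and 3. It lay between 7.75 and 38.4 CPM in BM day 1 and ranged widely in BM day 3 (0.0479 to 169 CPM). The library names of AM day 0 have their own prefix, as do those of BM day 1. Cell type or day cannot be told apart from sex or prefix where the compared groups differ in them. In sorted bulk RNA, fewer cells of a type and less RNA per cell cannot be told apart either.

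Zfp36l1 was the gene that separated the cell types. It encodes the TTP relative also known as BRF1 (ENSMUSG00000021127, chr12:80107754-80113013, minus strand). In BM it stood at 241, 279, 435, 259 and 291 CPM at day 1, at 340, 180, 234 and 172 CPM at day 3, and at 209, 198 and 129 CPM at day 7. In AM it stood at 79.3, 111 and 129 CPM at day 0, at 28.7, 32.3, 69.0 and 24.8 CPM at day 1, at 35.3, 91.3 and 35.7 CPM at day 3, and at 18.3, 11.7, 14.2 and 14.4 CPM at day 7. Each of the 12 BM libraries was above each of the 14 AM libraries, although the lowest BM library (BM_day7.3, 43.2 CPM per kb of exon) and the highest AM library (AM_day0.3, 43.0 CPM per kb) nearly touched. After LPS no AM library exceeded 91.3 CPM (n = 11). Of all genes tested, 37 (0.216%) had every BM library above every AM library, and 222 (1.29%) had BM above AM without overlap at each of days 1, 3 and 7. The reverse, every BM library below every AM library, held for 0.192%.

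In order of group means Zfp36l1 was highest in BM day 1 (301 ± 77.5 CPM, SD, n = 5), followed by BM day 3 (232 ± 77.4, n = 4), BM day 7 (179 ± 43.3, n = 3), and then by resident cells of day 0 (106 ± 25, n = 3), of day 3 (54.1 ± 32.2, n = 3), of day 1 (38.7 ± 20.5, n = 4) and of day 7 (14.7 ± 2.71, n = 4). Neighbours in this order overlapped except BM day 7 with AM day 0 and AM day 1 with AM day 7. Of the 21 pairs of groups, 17 did not overlap, and the highest group mean was 20.6 times the lowest. Per length, Zfp36l1 ranked at the 97.6th percentile of 17125 genes in BM day 1 and at the 60.6th in AM day 7.

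Markers of monocyte-derived cells were read as a sum beside Zfp36l1 in the resident libraries. In each of the 4 AM groups the library with the most Zfp36l1 was also the library with the highest sum of 8 monocyte-derived macrophage markers, a comparison made after the values were seen. All 8 had counts in every group. Apoe was the largest part of the sum in AM_day3.2 (6035 CPM) and in AM_day1.3 (683 CPM). In AM_day1.3 Ccr2, Ly6c2, C1qa, C1qb, C1qc and Apoe were the highest of the group, but Itgam (258 CPM) and Cx3cr1 (0 CPM) were not. In AM_day0.3 Itgam was the lowest of the group (0.480 CPM) and the other markers the highest. In AM_day7.1 Ly6c2 was the lowest (0.581 CPM) and Itgam (18.2 CPM) not the highest, and Apoe was 690 CPM of the sum. In AM day 3 the sum was 9084 CPM in AM_day3.2, which had 91.3 CPM of Zfp36l1, and 2621 and 2033 CPM in AM_day3.1 and AM_day3.3, which had 35.3 and 35.7 CPM. In AM day 1 it was 1267 CPM in AM_day1.3, with 69.0 CPM of Zfp36l1, and 688 to 1024 CPM in the other libraries. In none of the 3 BM groups was it the same library: BM_day7.3, lowest in Zfp36l1 of its group, had a sum of 29196 CPM against 11797 and 12099 CPM. Most of that sum was Apoe, at 26338 CPM in BM_day7.3 and 8700 and 8958 CPM in BM_day7.1 and BM_day7.2. Itgam and Ly6c2 were also highest in BM_day7.3, but Ccr2, C1qa, C1qb and Cx3cr1 were lowest there. AM day 0 had the lowest sums of all groups (164 to 219 CPM) beside the highest Zfp36l1 of the AM groups. The part of these cells in the Zfp36l1 levels was not tested.

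**Figure D1:**
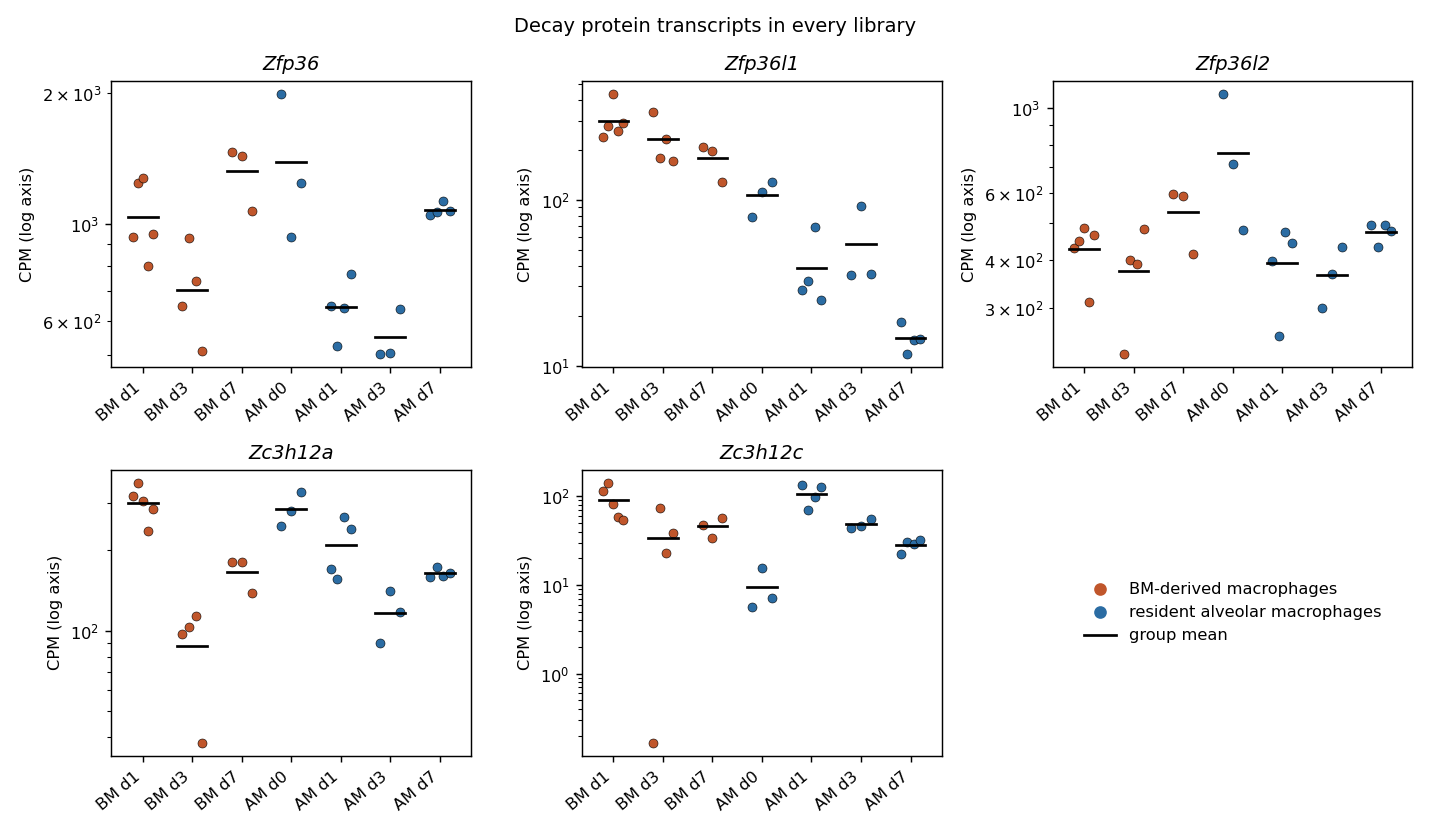
CPM of each gene on a log axis in every library, by group (points, BM-derived macrophages in orange and resident macrophages in blue) with the group mean (line). Zfp36l1 lies above every AM library in all 12 BM libraries, and Zc3h12c is lowest in AM day 0 apart from BM_day3.1.

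Zfp36, which encodes TTP (ENSMUSG00000044786, chr7:28376784-28380253, minus strand), was the most abundant of the 5 and did not separate the cell types. BM libraries held 935, 1242, 1276, 803 and 948 CPM at day 1, 648, 927, 738 and 510 CPM at day 3, and 1465, 1436 and 1073 CPM at day 7. AM libraries held 1991, 932 and 1241 CPM at day 0, 648, 525, 640 and 767 CPM at day 1, 502, 506 and 639 CPM at day 3, and 1049, 1068, 1132 and 1072 CPM at day 7. In mean both cell types were lowest at day 3, and every library of BM day 7 and of AM day 7 was above every library of the same cells at day 3. Group means ran from 1388 ± 544 CPM in AM day 0 through 1325 ± 218 in BM day 7, 1080 ± 36.0 in AM day 7, 1041 ± 208 in BM day 1, 706 ± 175 in BM day 3 and 645 ± 98.6 in AM day 1 to 549 ± 78.0 in AM day 3, and every neighbour in this order overlapped. Per length Zfp36 ranked at the 98.0th to 99.4th percentile of all ranked genes.

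Immediate early transcripts, which rise within minutes of stimulation and also when tissue is dissociated, moved with Zfp36. Over the 26 libraries the log2 level of Zfp36 and that of the sum of 15 immediate early and dissociation genes had r = 0.85. After group means were removed r was 0.56. In BM the sum lay between 9732 and 13961 CPM at day 1, between 3329 and 7184 at day 3 and between 10514 and 13994 at day 7. In AM it lay between 9962 and 17497 CPM at day 0, between 5845 and 6897 at day 1, between 4424 and 5746 at day 3 and between 7689 and 10166 at day 7. The sum includes the heat-shock genes Hspa1a and Hspa1b. They had 3189 and 4654 CPM in AM_day0.3 but 32.1 and 55.2 CPM in AM_day0.1, the library with the most Zfp36. Socs3, also in the sum, went the other way in AM, with means of 169 CPM at day 0 and 753 CPM at day 1. The same correlation was 0.68 for Zc3h12a (0.21 after group means), 0.60 for Zfp36l2 (0.32), 0.24 for Zfp36l1 (−0.17) and 0.13 for Zc3h12c (0.56). Within groups Zc3h12c thus had the same r with the sum as Zfp36. However, BM_day3.1 was the lowest of all libraries both in Zc3h12c (0.165 CPM, 2 reads) and in the sum (3329 CPM). The r of Zc3h12c without BM_day3.1 was not computed. The value therefore does not show that Zc3h12c followed the sum within the groups in general. The points share libraries, groups and scaling. Handling of the tissue and response of the cells cannot be told apart from these values, and the part of either in the Zfp36 levels was not tested.

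**Figure D2:**
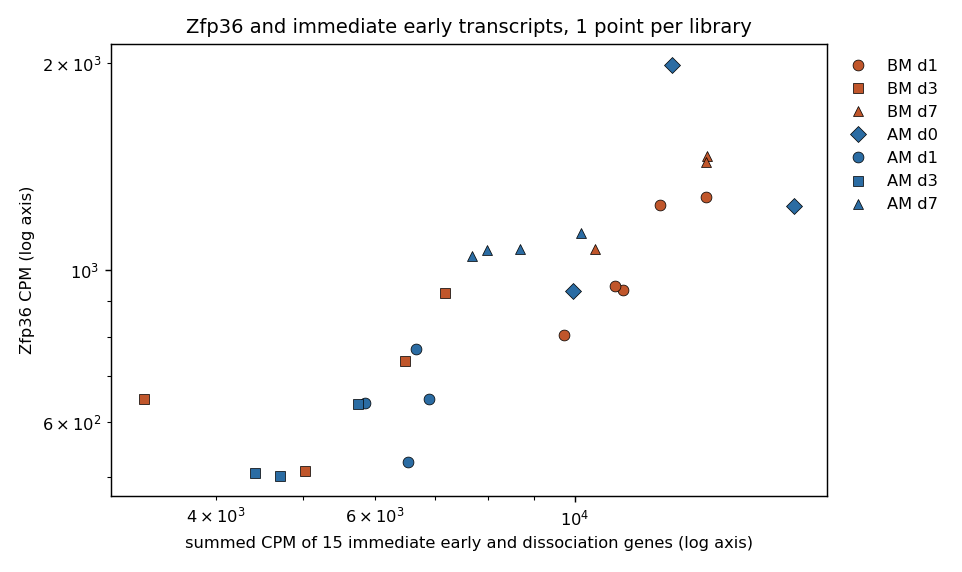
Zfp36 CPM against the summed CPM of 15 immediate early and dissociation genes, both on log axes, 1 point per library with cell type by colour and day by shape. Libraries of day 3 and of AM day 1 lie toward the low end of both axes, and those of BM day 1, BM day 7 and AM day 0 toward the high end (r = 0.85 on log2 values over 26 libraries).

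The promoter of Zfp36 held a CArG box, the element bound by serum response factor at many immediate early genes. The 50 bases from 78 to 29 before the start site in the RefSeq promoter table (build GRCm38.p6) are shown because Zfp36 moved with that class, and the capitals mark the box, whose first base is at −58.
Zfp36 promoter (chr7:28379257-28379306, minus strand): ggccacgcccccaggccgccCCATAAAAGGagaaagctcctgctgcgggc
A CArG box was in 535 of 32851 promoters (1.63%). Both strands were searched from 250 bases before to 50 after the start site. No CArG box, NF-kB consensus (in 4.51% of promoters) or AP-1 site, written TGACTCA or TGAGTCA (in 5.20%), was in the promoters of Zfp36l1, Zc3h12a and Zc3h12c, and Zfp36 had neither of the other motifs. The table matched 4 of the 5 genes. The stretch shown lies inside the gene coordinates given above for Zfp36, which reach beyond the RefSeq start site. These letters do not show that a factor binds.

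Zfp36l2, the relative also known as BRF2 (ENSMUSG00000045817, chr17:84183931-84187947, minus strand), had the smallest spread of group means. BM libraries held 311 to 485 CPM at day 1, 228 to 483 at day 3 and 416 to 597 at day 7. AM libraries held 481, 713 and 1084 CPM at day 0, 255 to 475 at day 1, 301 to 433 at day 3 and 433 to 495 at day 7. Only 2 of 21 pairs of groups did not overlap, AM day 1 and AM day 3 each lying below AM day 0. The highest group mean (759 ± 304 CPM in AM day 0, SD, n = 3) was 2.07 times the lowest (367 ± 65.8 CPM in AM day 3, n = 3). Over single libraries it ran from 228 to 1084 CPM, a relative range no narrower than that of Zfp36 (502 to 1991 CPM).

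Zc3h12a, which encodes Regnase-1 (ENSMUSG00000042677, chr4:125118423-125127840, minus strand), was high early and low at day 3 in both cell types. BM libraries held 318, 356, 305, 235 and 284 CPM at day 1, 97.5, 103, 113 and 38.1 CPM at day 3, and 180, 180 and 138 CPM at day 7. AM libraries held 246, 279 and 330 CPM at day 0, 170, 156, 266 and 240 CPM at day 1, 89.7, 141 and 117 CPM at day 3, and 158, 173, 160 and 164 CPM at day 7. BM day 3 lay wholly below BM day 1 and below BM day 7. The group means were 300 ± 44.7 CPM in BM day 1, 285 ± 42.1 in AM day 0, 208 ± 53.3 in AM day 1, 166 ± 24.2 in BM day 7, 164 ± 6.76 in AM day 7, 116 ± 25.8 in AM day 3 and 87.7 ± 33.6 in BM day 3, and of neighbours in this order AM day 7 and AM day 3 alone did not overlap.

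Zc3h12c, which encodes Regnase-3 (ENSMUSG00000035164, chr9:52111344-52168572, minus strand), was the gene that was low without LPS. AM libraries held 5.66, 15.7 and 7.12 CPM at day 0, 133, 70.1, 98.8 and 127 CPM at day 1, 43.3, 45.8 and 55.5 CPM at day 3, and 22.1, 30.5, 28.9 and 32.5 CPM at day 7. All 11 AM libraries after LPS were above the 3 at day 0, and the AM days stood in the order 1, 3, 7 with no overlap between them. BM libraries held 115, 142, 80.8, 59.0 and 54.6 CPM at day 1, 0.165, 73.3, 23 and 38.7 CPM at day 3, and 47.4, 33.4 and 56.6 CPM at day 7. The value of 0.165 CPM, 2 reads, is from BM_day3.1, the library that stood apart. Without it BM day 3 had a mean of 45.0 CPM over 3 libraries, and with it 33.8 ± 30.7 CPM (SD, n = 4). Group means ran from 107 ± 28.9 CPM in AM day 1 through 90.2 ± 37.4 in BM day 1, 48.2 ± 6.45 in AM day 3, 45.8 ± 11.7 in BM day 7, BM day 3 and 28.5 ± 4.53 in AM day 7 to 9.50 ± 5.44 in AM day 0, and AM day 7 with AM day 0 was the sole pair of neighbours that did not overlap.

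Of the fitted differences between BM and AM at the same day, those of Zfp36l1 were the largest. They are log2 fold changes ± SE from edgeR, with no test. Zfp36l1 was higher in BM by 2.96 ± 0.33 at day 1 (7.79-fold), by 2.10 ± 0.37 at day 3 (4.28-fold) and by 3.61 ± 0.36 at day 7 (12.2-fold). Without BM_day1.3 and BM_day3.1 these were 2.78 ± 0.31, 1.84 ± 0.35 and 3.60 ± 0.33, and without AM_day3.2 the difference at day 3 was 2.70. Zfp36 differed by 0.69 ± 0.19, 0.36 ± 0.22 and 0.29 ± 0.22 at days 1, 3 and 7, the groups overlapping at days 3 and 7. Zfp36l2 differed by 0.12 ± 0.22, 0.03 ± 0.25 and 0.17 ± 0.25, and its groups overlapped on each day. Zc3h12a differed by 0.53 ± 0.23, −0.40 ± 0.26 and 0.02 ± 0.26, again with overlap on each day. Zc3h12c differed by −0.25 ± 0.65, −0.51 ± 0.73 and 0.69 ± 0.73, and lay wholly higher in BM at day 7.

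At day 1, Zfp36 and Zfp36l1, 2 of the 5 genes, had every BM library above every AM library, as had 10.7% of all tested genes. At day 3 it was 1 of 5 (Zfp36l1), with 3.63% of all genes, and at day 7 it was 2 of 5 (Zfp36l1 and Zc3h12c), with 15.5% of all genes. None of the 5 lay wholly lower in BM on any of these days, as 12.6%, 11.3% and 14.2% of all genes did at days 1, 3 and 7. The genes were chosen on these levels, and nothing is read from these counts.

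**Figure D3:**
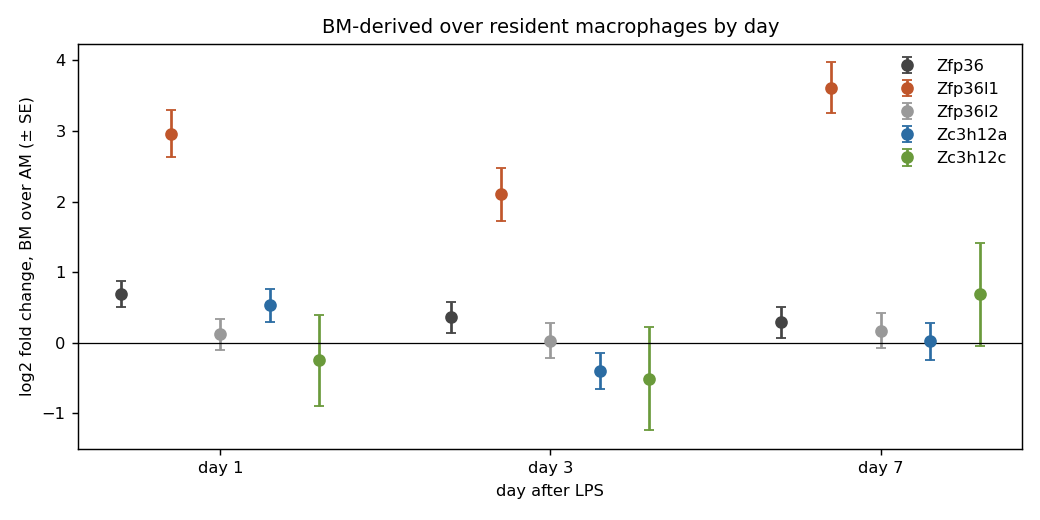
Log2 fold change of BM over AM (vertical axis, bars show ± SE of the fit) at days 1, 3 and 7 after LPS for the 5 genes. Zfp36l1 lies between 2.10 and 3.61, the other genes between −0.51 and 0.69.

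In resident macrophages after LPS, set against day 0, Zc3h12c was higher without overlap on each day. The other 4 genes had lower means on each day, but each of them overlapped with day 0 on 1 of the 3 days. Zc3h12c was higher by 3.49 ± 0.85 at day 1 (11.3-fold), by 2.34 ± 0.83 at day 3 and by 1.58 ± 0.77 at day 7. Without BM_day1.3 and BM_day3.1 its changes were the same and the standard errors 0.43, 0.42 and 0.39. Zfp36l1 was lower, at −1.46 ± 0.34 for day 1, −0.97 ± 0.37 at day 3, where AM_day3.2 overlapped with day 0, and −2.86 ± 0.35 at day 7 (7.25-fold). Without AM_day3.2 the difference at day 3 was −1.58. Zfp36 differed by −1.11 ± 0.22 at day 1, −1.34 ± 0.24 at day 3 and, with overlap, by −0.36 ± 0.22 at day 7. Zfp36l2 differed by −0.95 ± 0.25, −1.05 ± 0.27 and −0.68 ± 0.25, with overlap at day 7. AM_day0.1 was the highest library of both genes. Without it Zfp36 differed by −0.75, −0.99 and 0.00, and Zfp36l2 by −0.60, −0.70 and −0.32, at days 1, 3 and 7. Zc3h12a differed by −0.45 ± 0.26, with overlap, at day 1, by −1.30 ± 0.28 at day 3 and by −0.80 ± 0.25 at day 7. The median of all genes was −0.20 at day 1, −0.07 at day 3 and −0.04 at day 7.

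Of the 5 genes 1 lay wholly higher and 3 wholly lower in AM day 1 than in AM day 0, where 9.36% of all genes were wholly higher and 21.2% wholly lower. In AM day 3 it was 1 and 3, with 14.0% and 19.7% of all genes, and in AM day 7 1 and 2, with 12.1% and 14.7%. The 3 comparisons share the day 0 libraries. T and NK cell markers summed to 34.3 to 67.4 CPM and B cell markers to 52.2 to 84.0 CPM in AM day 0, which were the highest of all groups (at most 33 and 28.6 CPM elsewhere, with all 9 and all 5 markers found in AM day 0), and their part in these differences was not tested.

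In BM-derived macrophages the largest difference between days was that of Zc3h12a, at −1.77 ± 0.24 for day 3 against day 1, without overlap. Zfp36 differed by −0.56 ± 0.19, Zfp36l1 by −0.38 ± 0.30, Zfp36l2 by −0.19 ± 0.22 and Zc3h12c by −1.42 ± 0.67 there, each with overlap. Without BM_day1.3 and BM_day3.1 Zc3h12c differed by −1.03 ± 0.38, and without BM_day3.2 by −2.12. At day 7 against day 3, Zfp36 (0.91 ± 0.22) and Zc3h12a (0.92 ± 0.26) were higher in every library. Zfp36l1 differed by −0.37 ± 0.35, Zfp36l2 by 0.51 ± 0.25 and Zc3h12c by 0.44 ± 0.73, with overlap, and that of Zc3h12c was 0.03 ± 0.40 without BM_day1.3 and BM_day3.1 and 1.15 without BM_day3.2. Of the 5 genes 1 was wholly lower at day 3 than at day 1, with 6.75% of all genes, and none wholly higher, with 5.50%. At day 7 against day 3, 2 were wholly higher, with 16.2% of all genes, and none wholly lower, with 3.50%.

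The mean share of Zfp36l1 in the TTP family differed with the cell type, as read from CPM per kb of exon, but single libraries overlapped. Exon length counts each base that is exon in any annotated transcript. For Zfp36 this is 3470 bases, the whole span of the gene. A shorter length would raise the share of Zfp36 and lower the other shares in every group. Zfp36l1 made up 19.3 ± 2.67% of the summed level of the 3 relatives in BM day 1 (SD, n = 5), 20.3 ± 7.62% in BM day 3 (n = 4) and 9.99 ± 0.728% in BM day 7 (n = 3). In AM it made up 6.09 ± 2.76% at day 0 (n = 3), 4.20 ± 1.94% at day 1 (n = 4), 6.50 ± 3.83% at day 3 (n = 3) and 1.09 ± 0.197% at day 7 (n = 4). Zfp36 held the largest mean share in every group, between 51.9% and 69.1%. The family's summed level was 522 ± 94.9 CPM per kb in BM day 1, 387 ± 43.6 in BM day 3 and 593 ± 106 in BM day 7, and 651 ± 223, 310 ± 53.9, 280 ± 38.4 and 451 ± 15.1 in AM at days 0, 1, 3 and 7. In AM after LPS the family sum lay almost wholly in Zfp36 and Zfp36l2, and Zfp36l1 made up at most 10.9% in any library (AM_day3.2). That share was above those of the BM day 7 libraries (9.18% to 10.6%).

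Of the summed level of the Regnase pair Zc3h12c made up 1.39 ± 0.802% in untreated AM, then 18.1 ± 4.85%, 15.2 ± 2.76% and 6.82 ± 0.896% at days 1, 3 and 7 after LPS. In BM its share was 10.9 ± 2.80% at day 1, 15.3 ± 13.7% at day 3, where libraries ranged from 0.0713% to 29.9%, and 10.7 ± 3.79% at day 7. The pair's summed level was 117 ± 20.5 CPM per kb in BM day 1, 35.4 ± 12.2 in BM day 3 and 64.2 ± 7.11 in BM day 7. In AM it was 100 ± 14.7, 87.8 ± 19.9, 47.2 ± 9.20 and 60.9 ± 2.81 at days 0, 1, 3 and 7.

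**Figure D4:**
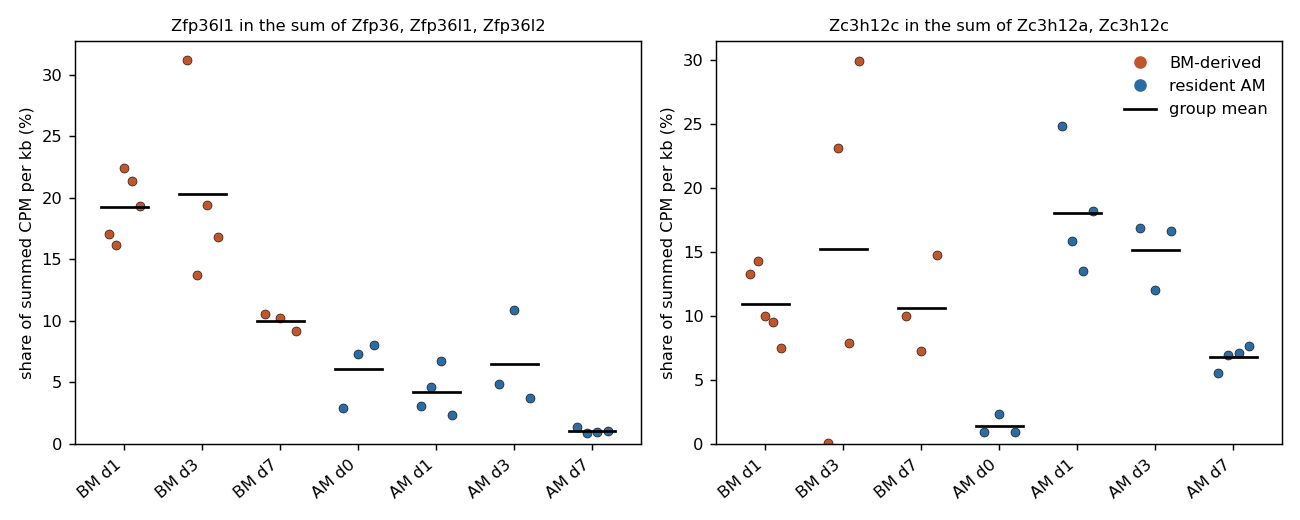
Share in percent of Zfp36l1 in the summed CPM per kb of Zfp36, Zfp36l1 and Zfp36l2 (left), and of Zc3h12c in that of Zc3h12a and Zc3h12c (right), in every library (points) with group means (lines). Zfp36l1 averages 9.99% to 20.3% in the BM groups and 1.09% to 6.50% in the AM groups, and Zc3h12c averages 1.39% in AM day 0 and 6.82% to 18.1% after LPS. For Zfp36l1, AM_day3.2 (10.9%) lies above the BM day 7 libraries (9.18% to 10.6%).

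Other genes of the same pathway, and immediate early genes, were taken from 8 lists of 140 genes, of which 136 were tested. The list of 15 immediate early and dissociation genes is not part of the decay pathway, but all counts and shares of listed genes include it. All 8 lists were chosen with earlier results of these data known. A share of listed genes above that of all genes is therefore not read as a result about the pathway. A gene was called at an adjusted p under 0.05 by edgeR's quasi-likelihood test with Benjamini-Hochberg adjustment over all tested genes. In BM day 1 against AM day 1, 32 listed genes were higher and 18 lower (36.8% called, against 29.0% of all genes, 15.2% higher and 13.8% lower). Partners and relatives of the decay proteins were called in 4 of 8, all higher. Arid5a, which binds Il6 RNA and protects it from Regnase-1, averaged 159 CPM in BM and 28.3 CPM in AM (2.49 ± 0.30, adjusted p = 3.5e-07). Rc3h1, which encodes Roquin-1, a protein that binds the same stem-loops as Regnase-1, averaged 159 and 37.7 CPM in BM and AM (2.08 ± 0.24, adjusted p = 2.1e-07). Zfp36l3 and Zc3h12b, further relatives, did not pass the filter, and no group averaged above 0.493 CPM.

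Among other AU-rich element binding proteins at day 1, 3 of 15 were higher in BM and 4 lower. Hnrnpd, which encodes AUF1, averaged 78.2 CPM in BM and 235 CPM in AM (−1.59 ± 0.15, adjusted p = 1.3e-08), and Ybx1 averaged 292 and 875 CPM (−1.58 ± 0.12, adjusted p = 2.4e-10). Of the deadenylation genes 5 of 20 were higher and 1 lower, with Pan3, part of a poly(A) nuclease, at 172 CPM in BM and 45.4 CPM in AM (1.92 ± 0.23, adjusted p = 3.2e-07), and Cnot1, the scaffold of CCR4-NOT, at 262 and 117 CPM (1.17 ± 0.22, adjusted p = 2.4e-04). Of the decapping genes 3 of 21 were higher and 2 lower, and Ddx6, an RNA helicase that activates decapping, averaged 426 CPM in BM and 178 CPM in AM (1.26 ± 0.19, adjusted p = 9.4e-06). Of the exosome genes 3 of 16 were called, all lower, of which Exosc2 lost its call under 15 of 35 alternatives, Exosc3 under 9 and Exosc5 under 1. Of the genes that control the decay proteins 5 of 18 were higher and 2 lower, with Dusp1, the phosphatase that turns off p38, at 1700 CPM in BM and 797 CPM in AM (1.10 ± 0.17, adjusted p = 2.1e-05).

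Known target transcripts moved both ways at day 1, with 6 of 23 higher in BM and 5 lower. Vegfa averaged 324 CPM in BM and 13.7 CPM in AM (4.57 ± 0.88, adjusted p = 4.7e-04), and Nfkbiz, an inducible regulator of NF-kB, averaged 1550 and 284 CPM (2.44 ± 0.26, adjusted p = 8.0e-08). Il1b averaged 6030 CPM in BM and 2940 CPM in AM (1.04 ± 0.22, adjusted p = 9.1e-04). The neutrophil chemokine Cxcl1 averaged 34.5 CPM in BM and 220 CPM in AM (−2.67 ± 0.56, adjusted p = 0.001). Neutrophil markers, whose source cells also hold Il1b, lay between 563 and 1373 CPM in sum in BM at day 1 (10 of 10 found) and between 104 and 591 CPM in AM (9 of 10, Camp at 0), and their part was not tested. Immediate early genes were higher in 6 of 15 and lower in 1, led by Nr4a1 with 1800 CPM in BM and 296 CPM in AM (2.60 ± 0.21, adjusted p = 6.8e-10). Without BM_day1.3 and BM_day3.1 the listed genes called at day 1 were 41 higher and 29 lower, when 40.4% of all genes were called.

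The number of listed genes called between the cell types at days 3 and 7 depended on the libraries fitted. At day 3, 3 were higher in BM and 4 lower (5.15%, against 3.98% of all genes, 0.997% higher and 2.99% lower), and none of the 7 named calls was kept under each alternative. Arid5a was higher in BM (45.9 CPM, against 15.9 CPM in AM, 1.53 ± 0.33, adjusted p = 0.008) and Cxcl1 was lower (7.42 CPM, against 108 CPM in AM, −3.86 ± 0.66, adjusted p = 0.0021). With the compared groups fitted alone edgeR called 0 listed genes at day 3, with 12 of 133 at an unadjusted p under 0.05, and DESeq2 called 14 in the fit of all groups. There the adjusted p of Arid5a ranged up to 0.29 over the alternatives. At day 7, 6 listed genes were called, all higher in BM (4.41%, against 1.77% of all genes, 1.48% higher and 0.286% lower). With these 2 groups fitted alone 42 of 134 listed genes were called at day 7, when 20.4% of all genes were. Arid5a averaged 34.7 CPM in BM and 5.63 CPM in AM (2.62 ± 0.32, adjusted p = 5.8e-06). The targets Ptgs2, the inducible cyclooxygenase (542 CPM in BM and 54 CPM in AM, 3.33 ± 0.55, adjusted p = 7.9e-04), and Ier3, an early response gene (472 and 82.5 CPM, 2.52 ± 0.29, adjusted p = 2.6e-06), were higher, as was Socs3, an inhibitor of cytokine signalling (481 and 83.7 CPM, 2.52 ± 0.25, adjusted p = 4.1e-07).

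In AM day 1 against AM day 0, 10 listed genes were higher and 11 lower (15.4%, against 6.28% of all genes, 3.22% higher and 3.06% lower). Known targets were higher in 4 of 23 and lower in 2. Ptgs2 averaged 333 CPM at day 1 and 26.5 CPM at day 0 (3.65 ± 0.61, adjusted p = 3.6e-04), Ier3 averaged 424 and 71 CPM (2.58 ± 0.31, adjusted p = 2.7e-06), and Il1b averaged 2940 and 943 CPM (1.64 ± 0.26, adjusted p = 1.1e-04). Neutrophil markers summed to 104 to 591 CPM in AM day 1 (9 of 10 found, Camp at 0) and 48.7 to 63.4 CPM in AM day 0 (8 of 10, Ly6g and Camp at 0). The 8 monocyte-derived markers summed to 688 to 1267 CPM at day 1 and 164 to 219 CPM at day 0, and the part of either in these changes was not tested. Of the genes that control the decay proteins, Malt1 averaged 546 CPM at day 1 and 156 CPM at day 0 (1.81 ± 0.41, adjusted p = 0.0064), Mapkapk2, which encodes MK2, averaged 573 and 308 CPM (0.90 ± 0.16, adjusted p = 5.1e-04), and Rps6ka1 was lower (−1.02 ± 0.19, adjusted p = 7.1e-04). Tnip1, a partner of the NF-kB inhibitor A20, averaged 321 CPM at day 1 and 117 CPM at day 0 (1.46 ± 0.20, adjusted p = 1.4e-05). Immediate early genes were lower in 7 of 15 and higher in 1, with Fosb at 355 CPM at day 1 and 1480 CPM at day 0 (−2.06 ± 0.38, adjusted p = 0.001), and Socs3 the gene that was higher (753 and 169 CPM, 2.15 ± 0.27, adjusted p = 3.9e-06). Malt1 passed the threshold neither without AM_day0.1 nor without AM_day0.3, with adjusted p between 6e-05 and 0.061 over the alternatives.

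The number of listed genes called against AM day 0 was 21 at day 1, 13 at day 3 and 6 at day 7 in the fit of all groups, but 33, 30 and 31 with the compared groups fitted alone, so no decline with time is read from it. In AM day 3, 2 were higher and 11 lower (9.56%, against 2.51% of all genes, 1.78% higher and 0.723% lower), and 7 of the 11 were immediate early genes. Tnf, the classic TTP target, averaged 164 CPM at day 3 and 1030 CPM at day 0 (−2.64 ± 0.43, adjusted p = 3.1e-04), and Dusp1 averaged 597 and 1210 CPM (−1.02 ± 0.21, adjusted p = 0.003). Dusp1 lost its call without AM_day0.1 and without AM_day3.2, with adjusted p between 0.00012 and 0.09 over the alternatives. In AM day 7, 6 were called, all lower (4.41%, against 0.677% of all genes, 0.408% higher and 0.268% lower), with Tnf at 204 CPM at day 7 and 1030 CPM at day 0 (−2.33 ± 0.38, adjusted p = 0.0016) and Arid5a at 5.63 and 17.5 CPM (−1.63 ± 0.31, adjusted p = 0.006). When the level of Y-linked transcripts entered the fit, 1 listed gene was called at day 7, and each of the 6 named lost its call. The Tnf level of AM day 0 stood beside the highest median sum of immediate early and dissociation genes among the AM groups. Heat-shock genes were part of that sum.

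In BM day 3 against BM day 1, 9 listed genes were higher and 38 lower (34.6%, against 25.9% of all genes, 10.6% higher and 15.2% lower). Target transcripts were called in 11 of 23, all lower, with Il1b at 969 CPM at day 3 and 6030 CPM at day 1 (−2.64 ± 0.24, adjusted p = 1.8e-08), Nfkbiz at 188 and 1550 CPM (−3.04 ± 0.27, adjusted p = 1.6e-08) and Ptgs2 at 218 and 1540 CPM (−2.83 ± 0.51, adjusted p = 3.9e-04). Controls of the decay proteins were lower in 5 of 18 and higher in 1, led by Malt1 (124 CPM at day 3 and 732 CPM at day 1, −2.56 ± 0.37, adjusted p = 2.6e-05) and Dusp1 (551 and 1700 CPM, −1.63 ± 0.18, adjusted p = 2.3e-07). Partners were lower in 4 of 8, Arid5a among them (−1.79 ± 0.29, adjusted p = 5.9e-05), and immediate early genes in 7 of 15. Neutrophil markers had a median sum of 1120 CPM in BM day 1 (10 of 10 found) and 549 CPM in BM day 3 (9 of 10, Ltf at 0). BM_day3.1 had 3349 CPM, and the part of neutrophils in these changes was not tested. The library names of these groups also differ in prefix. In BM day 7 against BM day 3, 22 listed genes were called, all higher (16.2%, against 3.98% of all genes, 3.09% higher and 0.898% lower), of which 11 were immediate early genes and 6 targets. Dusp1 averaged 1390 CPM at day 7 and 551 CPM at day 3 (1.34 ± 0.19, adjusted p = 1.3e-04), and Cxcl1 averaged 179 and 7.42 CPM (4.58 ± 0.68, adjusted p = 3.7e-04). With these 2 groups fitted alone 3 listed genes were called, and of the 13 named Dusp1 alone kept its call under every alternative. Without BM_day7.1 or BM_day7.2 there were 13 calls.

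Genes whose pattern was most like that of each decay gene were found by Pearson's r of log2(CPM + 1) over the 26 libraries, with the r after removal of group means beside it. Ranked were the 9592 tested genes with a symbol and a mean of at least 5 CPM, leaving out gene models, pseudogenes and receptor segments. For Zfp36 they were Cd83 (0.83 and 0.41), Btg2 (0.82 and 0.64) and Jun (0.82 and 0.46), and for Zc3h12a Csrnp1 (0.91 and 0.63), Tnfaip3 (0.90 and 0.51) and Bhlhe40 (0.89 and 0.64). For Zfp36l1 they were Plbd1 (0.94 and 0.68), Rcsd1 (0.93 and 0.66) and Rassf2 (0.92 and 0.56), and for Zfp36l2 Abca2 (0.82 and 0.76), Fam129a (0.80 and 0.78) and Tbc1d9 (0.80 and 0.83). For Zc3h12c they were Irak3 (0.90 and 0.84), Tnip3 (0.89 and 0.83) and Ifi211 (0.89 and 0.83). Among the 5 genes themselves r was 0.70 for Zfp36 with Zfp36l2 (0.52 after group means), 0.54 for Zfp36 with Zc3h12a (0.48), and between −0.17 and 0.34 for the other 8 pairs. After group means the other 8 ran from −0.39 for Zfp36l1 with Zc3h12c to 0.48 both for Zfp36l1 with Zc3h12a and for Zfp36l2 with Zc3h12c. The outlying library BM_day3.1 was the highest of its group in Zfp36l1 (340 CPM). It was the lowest in Zfp36l2 (228 CPM) and in Zc3h12c (0.165 CPM). Its part in the r of Zc3h12c with other genes was not tested. Libraries share groups, depth and scaling, so these are descriptions.

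Zfp36, Zfp36l1, Zfp36l2 and Zc3h12c overlap annotated genes on the opposite strand. For Zfp36 and Zfp36l2 these had at most 4.48 and 4.46 CPM in any library and for Zc3h12c 0 CPM, and the gene opposite Zfp36l1 was not analysed here. The strand setting of the counting is not given in the sources used here, so reads of such pairs cannot be told apart with certainty.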

How the data were processed

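The authors deposited raw read counts for each Ensembl gene, 1 column per library, from stranded poly(A)-selected libraries per the labels' protocols. The submitters' processing notes name HISAT2 2.1.0, featureCounts 2.0.0, Trimmomatic 0.39, FastQC 0.11.9 and build GRCm38. GENCODE M21 gave a symbol for 55227 of 55487 IDs. Group means of all 26 libraries were estimated in a single fit by edgeR 4.0.16 under R 4.3.3. It used TMM factors, filterByExpr at a minimum count of 10, robust quasi-likelihood F tests, and Benjamini-Hochberg adjustment over 17143 genes. The procedure was tested on simulated data.

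The 5 genes and all lists were chosen with earlier results of these data known. From each list the rule names up to 3 called genes with the largest change whose groups did not overlap (higher mean at least 5 CPM), plus the most abundant gene. The text gives examples of these. Likeness names the 3 genes of highest r. Alternatives were DESeq2 size factors, library size alone, DESeq2 1.42.0, no filter, the compared groups alone, a replicate block, the library number range, a Y-linked covariate, both outlying BM libraries left out, and each library left out in turn.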

Additional observations from a re-analysis of the deposited data

Results flagged for a closer look

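In AM day 1 the library AM_day1.3 stood far from the other 3 in Zfp36l1, with 69.0 CPM and the next library at 32.3 CPM. The gap was 0.831 of the range of the group. In BM day 1 the library BM_day1.3 stood far from the other 4 in Zfp36l1, with 435 CPM and the next at 291 CPM, a gap of 0.742 of the range. These are 2 of 20 groups of 4 or 5 libraries examined over the 5 genes, and chance alone flags about 1 in 20.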

How the results depend on the processing

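Over 35 alternatives each, the Zfp36l1 difference of BM over AM ranged from 2.78 to 3.38 at day 1, from 1.84 to 2.70 at day 3 and from 3.47 to 3.79 at day 7. Zc3h12c in AM day 1 against AM day 0 ranged from 3.23 to 4.06. With the Y-linked covariate Zc3h12a in AM day 7 against day 0 was −1.09, against −0.80 without it.

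The counts of listed genes called moved more. For BM day 3 against AM day 3 (7) they were 3 with no filter, 2 with the Y-linked covariate, 11 without BM_day1.3 and BM_day3.1, 0 with the compared groups alone and 14 by DESeq2. For AM day 1 against AM day 0 (21) they were 36 without both libraries, 33 with the groups alone and 34 by DESeq2. For AM day 3 against AM day 0 (13) they were 21, 30 and 24 in the same order. For AM day 7 against AM day 0 (6) they were 1 with the Y-linked covariate and 31 with the groups alone. The groups alone gave 42 for BM day 7 against AM day 7 (6), 31 for BM day 3 against BM day 1 (47) and 3 for BM day 7 against BM day 3 (22). The cause was not tested. Leaving out each library in turn gave 43 to 65 for BM day 1 against AM day 1 (50), 2 to 10 for BM against AM at day 3, lowest without AM_day3.1, and 5 to 8 at day 7. It gave 13 to 31 for AM day 1 against day 0, lowest without AM_day1.2, 6 to 17 for AM day 3 against day 0, lowest without AM_day3.2, and 3 to 7 for AM day 7 against day 0. It gave 43 to 50 for BM day 3 against BM day 1 and 13 to 27 for BM day 7 against BM day 3.

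The replicate numbers used were those of the sample titles. They differ from the numbers in the column names of the count table in AM day 3, BM day 1 and BM day 7. After group means were removed, libraries with the same title number had r between −0.11 and 0.093. Pairing by the column numbers was not tested, so these values do not show whether samples were paired. With the replicate block the counts, in the order of comparisons BM against AM at days 1, 3 and 7, AM days 1, 3 and 7 against day 0, BM day 3 against day 1 and BM day 7 against day 3, were 45, 7, 5, 20, 12, 6, 43 and 20.

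Read counts per library ranged from 142 to 9476 for Zfp36l1 and from 2 to 2636 for Zc3h12c, the 2 reads being those of BM_day3.1.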
